A study of Saccharomyces cerevisiae with 15 samples.

Results

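The 50 genes described here are meiosis and sporulation genes of budding yeast (Saccharomyces cerevisiae), chosen by name out of 6659 named entries in a table of RNA levels because haploid cells in mitotic growth normally keep them off. They comprise 26 early genes (3 entry regulators, 9 genes of the chromosome axis, cohesin and synapsis, 7 of double-strand break formation and 7 of strand exchange and crossovers), 2 genes of the switch out of prophase, and 22 late genes (12 of meiosis II and prospore membrane formation and 10 of the spore wall and spore maturation). Levels are RPKM (reads scaled by gene length and by library size), so genes can be compared with each other per length. In every one of the 15 libraries the 50 genes lay low: their median reached 7.06 to 11.3 RPKM in libraries without XRN1 or UPF1 and 1.97 to 3.67 RPKM in the others, which placed it between the 6.73 and the 11.3 percentile of all genes of a library.

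The study sequenced 15 libraries of 11 genotypes to compare RNA with and without the histone variant H2A.Z, in cells that do or do not degrade RNA normally. Without XRN1 there were 4 libraries (1 htz1 xrn1, 1 swr1 xrn1 and 2 xrn1) and without UPF1 another 4 (1 htz1 upf1, which the labels also spell htz1/upf11, 1 swr1 upf1 and 2 upf1). The other 7 were 1 prp43 DAmP htz1, 1 prp43 DAmP, 2 htz1, 1 swr1 and 2 wild type, the last of which are numbered 1 and 3. All groups shared the haploid BY4741/2 background (his-leu-ura-) and growth in YP dextrose to an OD600 of 0.4 to 0.7, followed by hot phenol extraction, rRNA depletion and a TruSeq library. HTZ1 encodes H2A.Z and SWR1 the remodeller that places it in nucleosomes. XRN1 encodes the cytoplasmic exonuclease that degrades mRNA from its 5′ end, and UPF1 the helicase of nonsense-mediated decay, which removes mRNAs that end translation too early. PRP43 encodes a helicase that takes apart spliceosomes, and its DAmP allele is built to lower the mRNA. A library is named by what it lacks, and the labels do not say whether libraries of a genotype came from separate cultures. In the averaged comparisons p-values measure the spread between libraries left after a term for background. That spread may be technical, and it also holds differences in an effect between backgrounds. SDs of levels likewise pool libraries of different genotypes. In bulk RNA, fewer cells with a transcript and less transcript per cell cannot be told apart.

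Meiosis in yeast begins when Ime1, a transcription activator, switches on early genes together with the kinase Ime2, and early promoters often carry a URS1 element bound by Ume6, which represses them in mitosis. Ndt80 then switches on the late genes through the middle sporulation element (MSE), which Sum1 occupies in mitotic cells. In haploids Rme1 keeps IME1 off by driving IRT1, a noncoding RNA transcribed across the IME1 promoter.

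Both elements were searched for in the 250 bases before the start codons, read from the R64 reference genome (the sequence of sacCer3). The core of URS1, GGCGGC, searched on both strands, was found before 15 of 26 early genes (57.7%), before 0 of 22 late genes and before 250 of 6002 protein-coding genes (4.17%). The core of the MSE, CACAAAA, also searched on both strands, was found before 1 of 26 early genes (3.85%, MSH5), before 13 of 22 late genes (59.1%), before NDT80 itself and before 405 of 6002 genes (6.75%). None of the 50 promoters held both cores, and a match is a description of the sequence, not a bound site. The windows of SPS18 and SPS19, which lie side by side on opposite strands, overlap and share 1 MSE core that was counted for each. The promoters shown belong to NDT80 and to some of the members that were lower without H2A.Z or SWR1 (below). The core of URS1 (REC8, SPO13) or of the MSE (the others) is in capitals. HOP1, MEI4 and SPO1 were also lower and are not shown, and SPO1 held neither core.
REC8, chrXVI:571379-571628, minus strand: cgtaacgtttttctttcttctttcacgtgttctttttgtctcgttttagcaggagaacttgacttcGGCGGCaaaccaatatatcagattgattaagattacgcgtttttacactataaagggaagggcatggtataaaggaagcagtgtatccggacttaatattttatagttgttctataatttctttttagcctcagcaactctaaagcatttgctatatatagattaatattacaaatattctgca
SPO13, chrVIII:131797-132046, plus strand: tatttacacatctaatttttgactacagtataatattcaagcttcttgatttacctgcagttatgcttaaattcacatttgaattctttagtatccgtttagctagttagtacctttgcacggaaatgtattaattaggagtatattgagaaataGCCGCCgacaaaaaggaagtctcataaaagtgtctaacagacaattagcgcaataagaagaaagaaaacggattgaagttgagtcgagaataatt
NDT80, chrVIII:356311-356560, plus strand: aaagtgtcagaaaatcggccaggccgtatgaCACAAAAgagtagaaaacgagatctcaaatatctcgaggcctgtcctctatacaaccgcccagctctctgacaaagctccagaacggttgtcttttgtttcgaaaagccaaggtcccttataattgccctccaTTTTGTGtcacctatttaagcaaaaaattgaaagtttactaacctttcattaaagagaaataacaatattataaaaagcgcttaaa
SMA2, chrXIII:141534-141783, minus strand: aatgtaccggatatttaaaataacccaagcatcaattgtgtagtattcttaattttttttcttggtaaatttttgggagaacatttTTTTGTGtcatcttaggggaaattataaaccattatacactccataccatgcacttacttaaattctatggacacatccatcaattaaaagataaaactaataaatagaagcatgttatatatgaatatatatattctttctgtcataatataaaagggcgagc
SSP1, chrVIII:472494-472743, plus strand: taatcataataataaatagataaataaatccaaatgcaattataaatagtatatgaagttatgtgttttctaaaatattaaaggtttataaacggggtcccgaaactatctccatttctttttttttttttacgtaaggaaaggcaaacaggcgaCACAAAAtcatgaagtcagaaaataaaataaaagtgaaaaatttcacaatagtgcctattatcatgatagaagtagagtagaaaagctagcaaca
SPS2, chrIV:1485304-1485553, minus strand: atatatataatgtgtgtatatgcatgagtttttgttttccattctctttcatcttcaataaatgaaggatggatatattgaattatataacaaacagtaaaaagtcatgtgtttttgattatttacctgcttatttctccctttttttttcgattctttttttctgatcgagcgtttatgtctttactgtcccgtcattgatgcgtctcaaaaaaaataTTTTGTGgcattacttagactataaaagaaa
The core began 184 bases before the start codon in REC8 and 95 bases before it in SPO13, on the reverse strand there. In SSP1 it began at 95 bases, in SMA2 at 164 and in SPS2 at 31, on the reverse strand in the last 2, and NDT80 held it at 219 and, reversed, at 86.

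**Figure D1:**
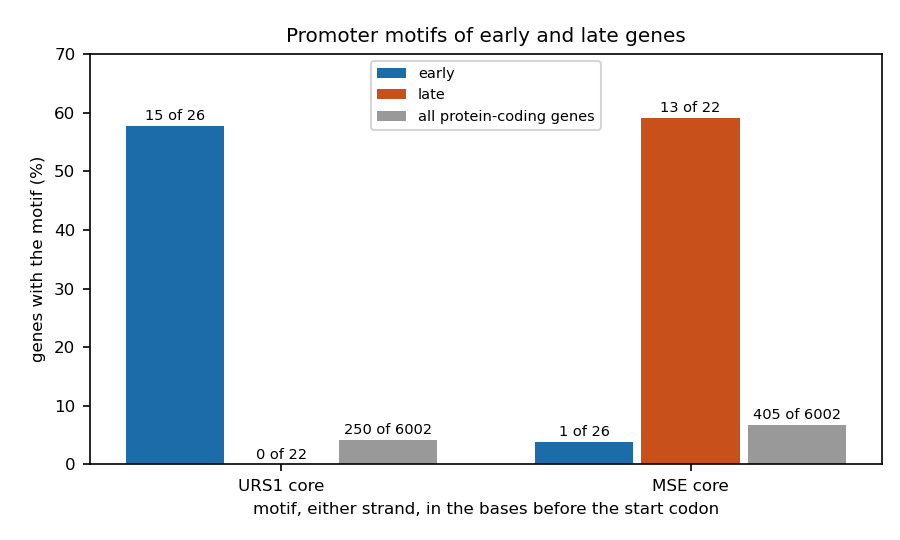
Share of promoters (percent of genes, y axis) with the core of URS1 or of the MSE in the 250 bases before the start codon, for early members, late members and all protein-coding genes. URS1 is found before 57.7% of the early and 0 of the late genes, the MSE before 59.1% of the late and 3.85% of the early genes.

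The genes also include 11 of yeast's few intron-bearing genes, with 12 introns in all. The 5′ splice site of yeast introns is most often GTATGT, and 6 of the 12 introns had other letters. The share over all yeast introns was not counted. Mer1, itself a member, is the meiotic splicing factor needed for some introns of this kind, among them those of REC107, SPO22 and AMA1. The windows show 10 bases of exon and the first 10 of the intron, with the splice site's 6 letters in capitals and REC114 as an example of the usual letters.
REC107, chrX:469254-469273, minus strand: gctacgaacgGTTCGTacca
SPO22, chrIX:225890-225909, minus strand: gagttatgcgGTATATaaca
MEI4, chrV:239702-239721, minus strand: ctggataatcGTACGTgaaa
HOP2, chrVII:435670-435689, plus strand: ggctcagaagGTTAAGtatt
AMA1, chrVII:946318-946337, plus strand: caagtctgtgGTACGTtatt
SPO1, chrXIV:609781-609800, plus strand: ggaggccaaaGTAAGTtaaa
REC114, chrXIII:537439-537458, plus strand: catgaaatggGTATGTatgc
The deposited values are scaled to the whole gene and do not separate spliced from unspliced RNA. The window of HOP2 is that of the first of its 2 introns.

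The median of the early genes stood above that of the late genes in each library. The early median was 11.2 RPKM in htz1 xrn1, 10.01 in swr1 xrn1 and 13.9 and 11.3 in xrn1, 9.85 with htz1 upf1, 7.60 with swr1 upf1 and 11.4 and 10.03 in upf1, and between 2.29 and 4.35 RPKM in the other 7 libraries. The late median was 9.53 RPKM in htz1 xrn1, 7.41 in swr1 xrn1, 8.54 and 9.28 in xrn1, 8.12 with htz1 upf1, 6.24 with swr1 upf1, 8.71 and 8.14 in upf1, and between 1.55 and 2.94 RPKM in the other 7. The ratio of early to late medians ran from 1.17 to 2.06 over the 15 libraries, with no test made of it. The genes of strand exchange and crossovers were the lowest early class, with a median between 0.354 and 4.56 RPKM in each library, and the entry regulators the highest, between 3.57 and 32.8 RPKM. The order did not hold for every class. The strand exchange class lay below the late median in each library. The late spore wall class lay above the early median in each library without UPF1 (14.65 RPKM in htz1 upf1). It was also above in htz1 xrn1, swr1 xrn1, xrn1 2, prp43 DAmP htz1 and htz1 2. It was below in xrn1 1 (9.45 RPKM), prp43 DAmP, htz1 1, swr1 and both wild type libraries.

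**Figure D2:**
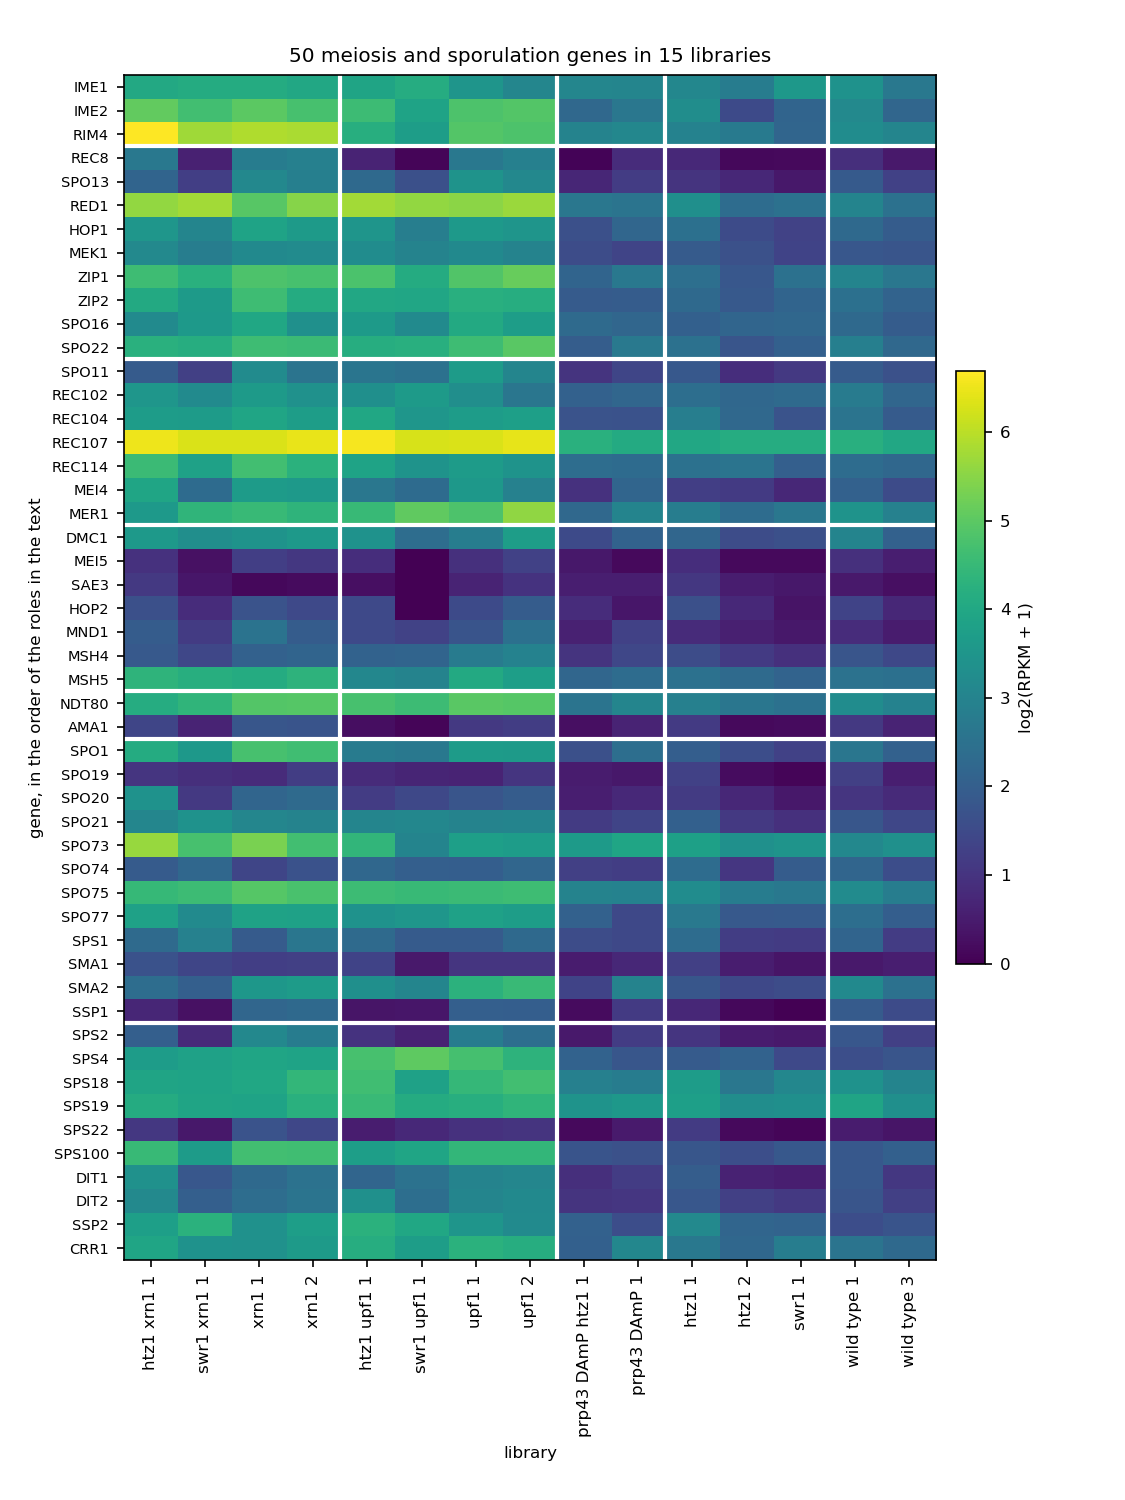
Level of each of the 50 genes (rows, ordered by role) in each of the 15 libraries (columns), as log2(RPKM + 1). The 8 libraries without XRN1 or UPF1 are brighter in most rows than the other 7, and 6 genes stay dark throughout with a mean under 1 RPKM.

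Depth limits the lowest of these genes. The values correspond to 7160189 (swr1 upf1) to 57373718 reads a library, and 36 of 50 genes had at least 20 reads in every library. MEI5, SAE3, HOP2 and SSP1 had 0 reads in a library. Genes had to average at least 1 RPKM over the libraries to be tested, and 44 of 50 genes passed (24 early, 19 late and NDT80). MEI5 and SAE3 (strand exchange), AMA1 (an activator of the anaphase-promoting complex in meiosis), SPO19 and SMA1 (prospore membrane) and SPS22 (spore wall) did not, and never exceeded 2.46 RPKM. Of the 44, HOP2, MND1, REC8, SPO20 and SSP1 averaged under 1 RPKM where XRN1 and UPF1 were present, so they passed the filter only through the libraries without XRN1 or UPF1. Counts over the 44 are therefore a description.

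The deleted genes had at most 0.290 RPKM in their own mutants and at least 23.0 RPKM elsewhere. Ribosomal DNA and mating type of the libraries touch the results below. Sequence of ribosomal DNA took 12.1 to 21.2% of the summed RPKM in htz1 1, swr1, htz1 upf1, swr1 upf1 and swr1 xrn1, and at most 3.41% in the other 10. The alpha-factor gene MF(ALPHA)1 of MATalpha cells stood at 1968 RPKM or more in the 3 libraries without SWR1 and in wild type 1, and at 4.72 RPKM or less in the other 11. RME1 was expressed in each library, between 41.1 and 116 RPKM.

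The first comparison set the 4 libraries without XRN1 against 5 with it (2 htz1, 1 swr1 and 2 wild type), matched for the state of HTZ1 and SWR1. Of the 44 genes, 39 rose, none fell and 5 did not pass the test (limma on log2(RPKM + 1), Benjamini-Hochberg adjusted p under 0.05). Over all 6495 genes tested 74.1% rose and 7.19% fell, with a median log2 change of 0.99, against 1.53 for the 44 genes. This shift of the whole library depends on scaling: with each library brought to the same median log ratio, the median of all genes was 0.04 and that of the 44 genes 0.57. After that scaling 22 rose (31.1% of all genes rose), 2 fell (29.0% of all genes fell) and 20 were not called. Gene values are therefore given also relative to the median of all genes.

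By role, 3 of 3 entry regulators, 9 of 9 axis and synapsis genes, 7 of 7 break genes, 3 of 5 tested strand exchange and crossover genes, NDT80, 7 of 10 meiosis II and membrane genes and 9 of 9 spore wall genes rose. Early genes had a median log2 change of 1.58 (22 of 24 rose, 13 of 24 after scaling) and late genes one of 1.36 (16 of 19 rose, 8 of 19 after scaling). The scale log2(RPKM + 1) shrinks changes of low genes, and late genes had a lower median level than early genes. Medians of early, late and all genes, here and below, therefore do not compare genes at like levels. Not called were HOP2 (log2 0.50 ± 0.29) and MSH4 (0.52 ± 0.22) among early genes and SPO74 (-0.02 ± 0.32), SPS1 (0.85 ± 0.36) and SSP1 (0.40 ± 0.26) among late ones. In 31 of the 44 genes the 4 libraries without XRN1 all lay above the 5 with it (63.2% of all genes).

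The entry regulator with the highest mean over the 15 libraries was RIM4 (YHL024W, chrVIII:56649-58790, plus strand), an RNA-binding protein that holds back translation of meiotic mRNAs. RIM4 stood at 102 RPKM in htz1 xrn1, 52.4 in swr1 xrn1 and 58.2 and 56.0 in xrn1, then 17.3 with htz1 upf1, 12.1 with swr1 upf1 and 28.6 and 27.0 with upf1, against 3.57 (lowest), 6.89 (median) and 8.60 (highest) in the 7 libraries with both genes. The 4 libraries without XRN1 lay above all others and htz1 xrn1 was the highest of them. Without XRN1, RIM4 averaged 67.1 ± 23.3 RPKM (SD, n = 4), against 6.38 ± 1.87 RPKM with it (n = 5), a log2 change of 3.25 ± 0.21 that lay 2.25 above the median gene (adjusted p = 4.43e-06). IME2 (YJL106W, chrX:221390-223327, plus strand), the kinase that drives entry with Ime1, stood at 32.8 RPKM in htz1 xrn1, 24.2 in swr1 xrn1 and 30.8 and 25.8 in xrn1, then 23.0 with htz1 upf1, 13.6 with swr1 upf1 and 27.3 and 28.6 with upf1, against 1.81 (lowest), 3.75 (median) and 8.78 (highest) in the 7 libraries with both genes. No library without XRN1 or UPF1 reached down to the others, and swr1 upf1 came nearest. IME2 averaged 28.4 ± 4.08 RPKM without XRN1 and 5.10 ± 3.06 RPKM with it (log2 2.42 ± 0.36, 1.42 above the median gene, adjusted p = 0.000168).

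IME1 (YJR094C, chrX:604569-605651, minus strand) itself moved less. IME1 stood at 15.3 RPKM in htz1 xrn1, 16.2 in swr1 xrn1 and 16.3 and 15.1 in xrn1, then 13.9 with htz1 upf1, 16.6 with swr1 upf1 and 10.3 and 7.34 with upf1, against 5.42 (lowest), 7.31 (median) and 10.9 (highest) in the 7 libraries with both genes. The libraries without XRN1 lay above the 5 with it, but those without UPF1 overlapped them. Its log2 change without XRN1 was 0.92 ± 0.20 (adjusted p = 0.00183), which is -0.07 relative to the median gene, and the call was lost after scaling (adjusted p = 0.849). IRT1, the noncoding RNA upstream of IME1 (chrX:605936-607424, minus strand, named here after its values were seen), stood at 26.8 RPKM in htz1 xrn1, 68.5 in swr1 xrn1 and 43.5 and 61.2 in xrn1, 51.3 with htz1 upf1, 76.5 with swr1 upf1 and 78.8 and 173 in upf1. In the other 7 libraries IRT1 lay between 9.88 (htz1 1) and 21.2 RPKM (swr1), below each of those 8.

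Among axis genes RED1 (YLR263W, chrXII:670340-672823, plus strand), a core protein of the meiotic chromosome axis, had the highest mean over the 15 libraries, with ZIP1 or SPO22 above it in prp43 DAmP, swr1 and both wild type libraries. RED1 stood at 47.3 RPKM in htz1 xrn1, 53.1 in swr1 xrn1 and 29.9 and 43.2 in xrn1, then 52.7 with htz1 upf1, 47.2 with swr1 upf1 and 44.8 and 50.6 with upf1, against 4.19 (lowest), 4.90 (median) and 9.09 (highest) in the 7 libraries with both genes. All 8 libraries without XRN1 or UPF1 were high and xrn1 1 was the lowest of them, far from any of the other 7. It averaged 43.4 ± 9.86 RPKM without XRN1 (n = 4) and 5.90 ± 2.12 RPKM with it (SD, n = 5), a log2 change of 2.73 ± 0.25, 1.74 above the median gene (adjusted p = 1.4e-05).

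Among break genes REC107 (YJR021C, chrX:468555-469579, minus strand), a partner of the break-making enzyme Spo11 and a gene whose intron needs Mer1, was the highest in every library. REC107 stood at 90.3 RPKM in htz1 xrn1, 77.9 in swr1 xrn1 and 78.5 and 86.8 in xrn1, then 96.4 with htz1 upf1, 77.1 with swr1 upf1 and 78.4 and 85.5 with upf1, against 14.9 (lowest), 16.7 (median) and 17.9 (highest) in the 7 libraries with both genes. It is the only one of the 50 genes that reached 10 RPKM in every library, and its 8 high values lay well apart from the 7 low ones. REC107 averaged 83.4 ± 6.16 RPKM without XRN1 and 16.2 ± 1.09 RPKM with it (log2 2.30 ± 0.13, 1.30 above the median gene, adjusted p = 2.95e-06). Of the 9 tested genes with introns, 8 rose without XRN1 and 8 without UPF1, against 31 and 28 of 35 without introns. Of all genes 74.1% rose without XRN1 and 28.8% without UPF1. Genes with and without introns were not compared by a test. HOP2 and MND1 with introns, and REC8, SPO20 and SSP1 without, passed the filter only through libraries without XRN1 or UPF1.

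MSH5 (YDL154W, chrIV:178334-181039, plus strand), the partner of Msh4 in the clamp that marks crossover sites, had the highest mean of the strand exchange and crossover genes, with DMC1 above it in htz1 upf1 and wild type 1. MSH5 stood at 19.4 RPKM in htz1 xrn1, 17.3 in swr1 xrn1 and 16.3 and 18.9 in xrn1, then 7.48 with htz1 upf1, 6.97 with swr1 upf1 and 15.7 and 12.4 with upf1, against 3.38 (lowest), 4.13 (median) and 4.71 (highest) in the 7 libraries with both genes. The libraries without XRN1 were the highest group, and in the upf1 background both upf1 libraries lay above htz1 upf1 and swr1 upf1. It averaged 18.0 ± 1.46 RPKM without XRN1 and 4.25 ± 0.572 RPKM with it (log2 1.87 ± 0.16, 0.88 above the median gene, adjusted p = 1.06e-05).

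NDT80 (YHR124W, chrVIII:356561-358444, plus strand), the activator of the late genes, stood at 16.7 RPKM in htz1 xrn1, 19.8 in swr1 xrn1 and 28.8 and 29.1 in xrn1, then 25.9 with htz1 upf1, 22.8 with swr1 upf1 and 30.7 and 29.5 with upf1, against 4.65 (lowest), 6.51 (median) and 8.50 (highest) in the 7 libraries with both genes. Within the xrn1 background, htz1 xrn1 and swr1 xrn1 lay below both xrn1 libraries. NDT80 averaged 23.6 ± 6.31 RPKM without XRN1 and 6.33 ± 1.52 RPKM with it (log2 1.69 ± 0.17, 0.69 above the median gene, adjusted p = 1.75e-05).

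Of the late genes, SPO1 (YNL012W, chrXIV:609686-611665, plus strand), a phospholipase-like protein needed for sporulation, stood at 16.2 RPKM in htz1 xrn1, 10.8 in swr1 xrn1 and 25.6 and 24.005 in xrn1, then 5.92 with htz1 upf1, 5.36 with swr1 upf1 and 11.8 and 11.5 with upf1, against 1.45 (lowest), 2.97 (median) and 5.16 (highest) in the 7 libraries with both genes. The xrn1 libraries were its highest, and swr1 xrn1 fell short of both upf1 libraries. SPO1 averaged 19.1 ± 6.91 RPKM without XRN1 and 2.95 ± 1.42 RPKM with it (log2 2.32 ± 0.19, 1.32 above the median gene, adjusted p = 8.46e-06). SPS100 (YHR139C, chrVIII:378219-379199, minus strand), a protein of spore wall maturation whose gene overlaps the annotated antisense transcript SUT169, stood at 21.8 RPKM in htz1 xrn1, 11.7 in swr1 xrn1 and 24.1 and 24.02 in xrn1, then 12.4 with htz1 upf1, 14.2 with swr1 upf1 and 20.4 and 20.5 with upf1, against 2.06 (lowest), 2.45 (median) and 3.13 (highest) in the 7 libraries with both genes. All 8 libraries without XRN1 or UPF1 lay above the other 7. SPS100 averaged 20.4 ± 5.89 RPKM without XRN1 and 2.57 ± 0.385 RPKM with it (log2 2.53 ± 0.21, 1.54 above the median gene, adjusted p = 8.31e-06). The 8 genes given here with a test, leaving out IME1, kept their calls after scaling and when any of the 9 libraries was left out.

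A late gene that turned with scaling was SPS19 (YNL202W, chrXIV:259578-260456, plus strand), a peroxisomal reductase of fatty acid breakdown made in sporulation. SPS19 stood at 16.2 RPKM in htz1 xrn1, 14.02 in swr1 xrn1 and 13.7 and 18.0 in xrn1, then 22.0 with htz1 upf1, 16.2 with swr1 upf1 and 17.4 and 19.6 with upf1, against 8.71 (lowest), 9.83 (median) and 13.9 (highest) in the 7 libraries with both genes. The groups overlapped, as xrn1 1 lay just below wild type 1, the highest library with both genes. Its log2 change without XRN1 was 0.51 ± 0.19 (adjusted p = 0.0291), but -0.44 after scaling (adjusted p = 0.0119). SPO74, a spindle pole component that starts the prospore membrane, was the other gene called lower after scaling (-0.98, adjusted p = 0.00907).

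**Figure D3:**
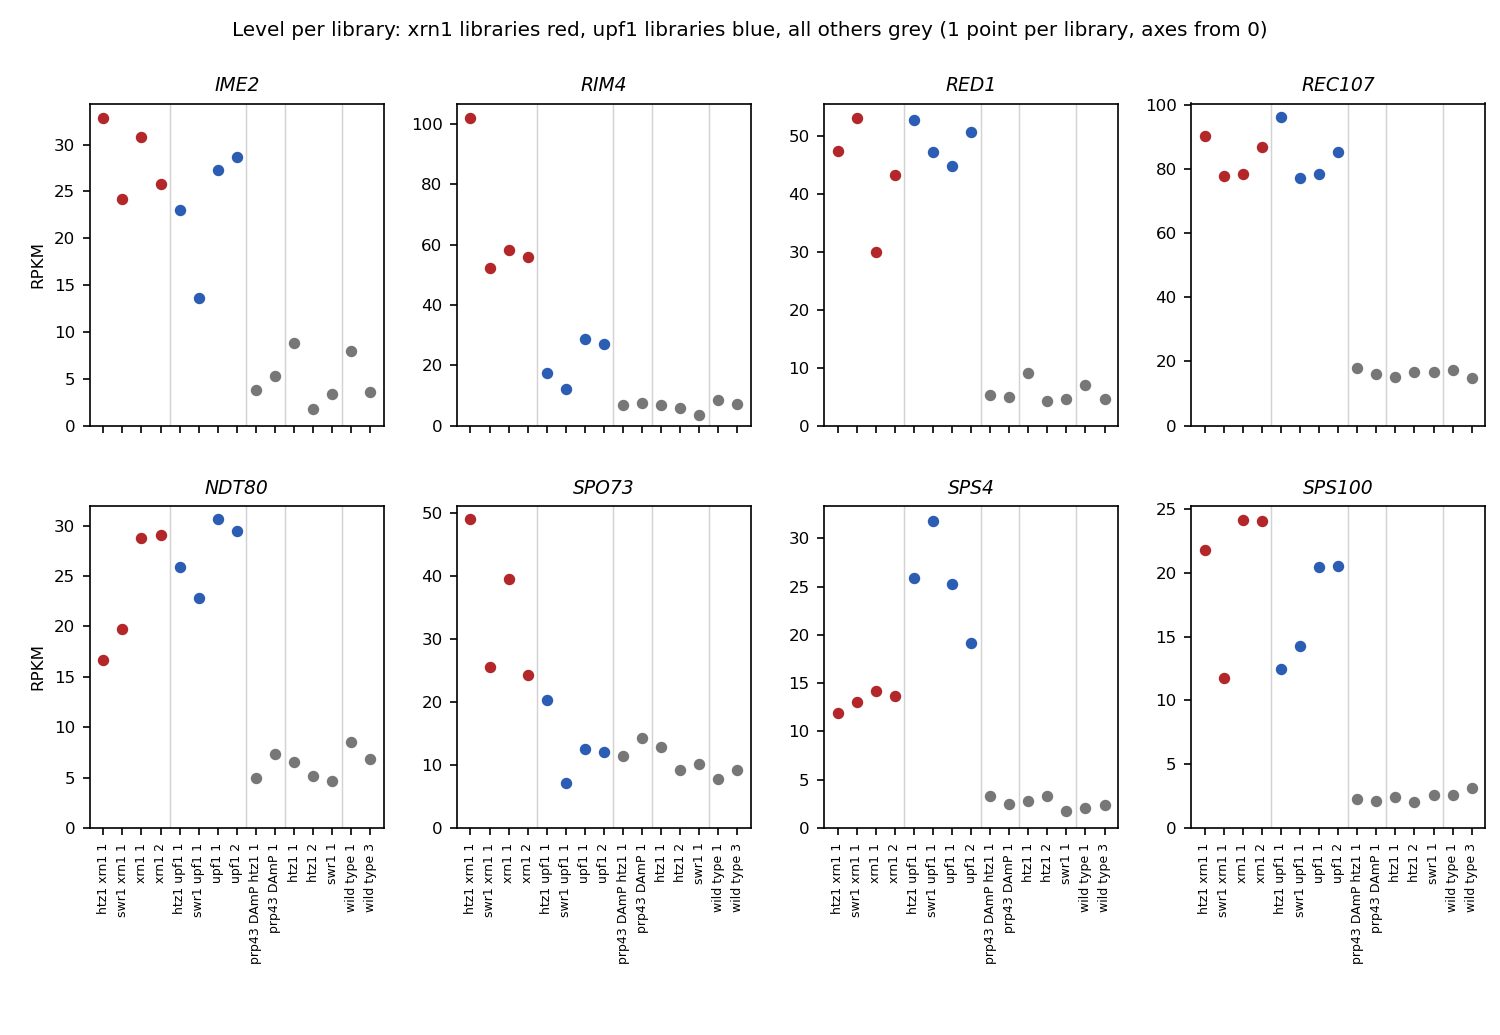
Level (RPKM, linear y axis from 0) of IME2, RIM4, RED1, REC107, NDT80, SPO73, SPS4 and SPS100 in every library, as 1 point each: red without XRN1, blue without UPF1, grey for the other 7. RIM4 and SPO73 are highest without XRN1 and SPS4 without UPF1, while RED1 and REC107 are alike high in both.

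The same 5 libraries served as the control for the loss of UPF1, so the 2 comparisons are not independent of each other. Of the 44 genes, 36 rose, none fell and 8 did not pass without UPF1, where 28.8% of all genes rose and 0.847% fell. The median log2 change was 1.46 for the 44 genes and 0.23 for all genes. After scaling 32 rose (20.9% of all genes rose), none fell (19.1% of all genes fell) and 12 were not called, with medians of 1.11 for the 44 genes and -0.12 for all genes. Early genes had a median of 1.48 (21 of 24 rose, 18 of 24 after scaling) and late genes one of 1.44 (14 of 19, and 13 of 19 after scaling). By role, 2 of 3 entry regulators, 8 of 9 axis genes, 7 of 7 break genes, 4 of 5 strand exchange and crossover genes, NDT80, 6 of 10 meiosis II and membrane genes and 8 of 9 spore wall genes rose. Not called were IME1 (log2 0.53 ± 0.22), REC8 (1.02 ± 0.42), HOP2 (0.31 ± 0.31), SPO73 (0.38 ± 0.22), SPO74 (0.28 ± 0.29), SPS1 (0.53 ± 0.30), SSP1 (0.21 ± 0.24) and SPS2 (0.60 ± 0.28). In 32 of the 44 genes the 4 libraries without UPF1 all lay above the 5 with it (26.2% of all genes).

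SPS4 (YOR313C, chrXV:901858-902874, minus strand), a gene transcribed in middle sporulation, was highest without UPF1. SPS4 stood at 11.9 RPKM in htz1 xrn1, 13.1 in swr1 xrn1 and 14.2 and 13.7 in xrn1, then 25.95 with htz1 upf1, 31.9 with swr1 upf1 and 25.2 and 19.2 with upf1, against 1.81 (lowest), 2.45 (median) and 3.31 (highest) in the 7 libraries with both genes. Every library without UPF1 lay above every library without XRN1, and those in turn above the other 7. SPS4 averaged 25.6 ± 5.19 RPKM without UPF1 (n = 4) and 2.47 ± 0.598 RPKM with it (SD, n = 5), a log2 change of 2.97 ± 0.19, 2.74 above the median gene (adjusted p = 1.36e-05). SPO75 (YLL005C, chrXII:137940-140546, minus strand), which shapes the prospore membrane, stood at 21.5 RPKM in htz1 xrn1, 23.0 in swr1 xrn1 and 29.5 and 26.1 in xrn1, then 22.8 with htz1 upf1, 21.9 with swr1 upf1 and 22.4 and 23.4 with upf1, against 5.39 (lowest), 6.79 (median) and 8.44 (highest) in the 7 libraries with both genes. Its 4 values without UPF1 were close to one another and lay far above the 7 low ones. SPO75 averaged 22.6 ± 0.672 RPKM without UPF1 and 6.84 ± 1.42 RPKM with it (log2 1.62 ± 0.16, 1.39 above the median gene, adjusted p = 8.69e-05).

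MSH4 (YFL003C, chrVI:134521-137157, minus strand), the partner of Msh5, was low throughout and stood at 2.68 RPKM in htz1 xrn1, 1.69 in swr1 xrn1 and 3.23 and 3.44 in xrn1, then 3.29 with htz1 upf1, 3.44 with swr1 upf1 and 5.90 and 6.84 with upf1, against 0.891 (lowest), 1.67 (median) and 2.404 (highest) in the 7 libraries with both genes. The upf1 libraries were the highest, and htz1 upf1 and swr1 upf1 lay at the level of the xrn1 libraries. MSH4 averaged 4.87 ± 1.78 RPKM without UPF1 and 1.63 ± 0.603 RPKM with it (log2 1.11 ± 0.21, 0.88 above the median gene, adjusted p = 0.00323).

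The genes already described rose without UPF1 as well. RED1 averaged 48.8 ± 3.53 RPKM without UPF1 against the same 5.90 ± 2.12 RPKM in the 5 control libraries (log2 2.93 ± 0.22, 2.69 above the median gene, adjusted p = 2.3e-05). REC107 averaged 84.3 ± 8.83 RPKM (log2 2.32 ± 0.12, 2.09 above the median gene, adjusted p = 7.92e-06) and SPS100 16.9 ± 4.18 RPKM (log2 2.26 ± 0.16, 2.02 above it, adjusted p = 2.1e-05). NDT80 averaged 27.2 ± 3.55 RPKM (log2 1.94 ± 0.14, 1.71 above the median gene, adjusted p = 2.24e-05) and IME2 23.1 ± 6.79 RPKM (log2 2.08 ± 0.36, 1.85 above it, adjusted p = 0.00202). These 8 genes without UPF1 kept their calls after scaling and when any of the 9 libraries was left out.

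The libraries without XRN1 were then set directly against those without UPF1, 4 against 4. Of the 44 genes, 5 were higher without XRN1 (53.2% of all genes were), 6 were lower (8.62% of all genes were) and 33 did not pass, with a median log2 difference of 0.06 for these genes and 0.51 for all genes. Scaling moved this split: 3 genes were then higher (22.0% of all genes) and 25 lower (30.5% of all genes), with medians of -0.56 and -0.10. Left without swr1 xrn1, or without swr1 upf1, the direct comparison called 7 genes in place of 11. Early genes split into 3 higher and 3 lower of 24, late genes into 2 higher and 3 lower of 19.

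Higher without XRN1 were RIM4, SPO73 and SPO1 under either scaling. RIM4 averaged 67.1 ± 23.3 RPKM without XRN1 and 21.3 ± 7.89 RPKM without UPF1 (SD, n = 4 each; log2 difference 1.63 ± 0.25, 1.12 above the median gene, adjusted p = 0.000781). SPO73 (YER046W, chrV:243180-243611, plus strand), a protein of prospore membrane growth, stood at 49.0 RPKM in htz1 xrn1, 25.5 in swr1 xrn1 and 39.4 and 24.2 in xrn1, then 20.3 with htz1 upf1, 7.11 with swr1 upf1 and 12.6 and 12.002 with upf1, against 7.72 (lowest), 10.1 (median) and 14.3 (highest) in the 7 libraries with both genes. Its libraries without XRN1 were all higher than any other, while those without UPF1 overlapped the 7 libraries with both genes. SPO73 averaged 34.5 ± 11.8 RPKM without XRN1 and 12.99 ± 5.44 RPKM without UPF1 (log2 difference 1.37 ± 0.18, 0.85 above the median gene, adjusted p = 0.000398). SPO1 averaged 19.1 ± 6.91 RPKM without XRN1 and 8.63 ± 3.46 RPKM without UPF1 (log2 difference 1.07 ± 0.15, adjusted p = 0.000438).

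REC114 and MSH5 were the other 2 genes called higher without XRN1, and neither call was kept after scaling. REC114 (YMR133W, chrXIII:536207-537609, plus strand), a partner of Spo11 in break formation, stood at 22.4 RPKM in htz1 xrn1, 13.2 in swr1 xrn1 and 24.5 and 18.3 in xrn1, then 13.6 with htz1 upf1, 9.85 with swr1 upf1 and 11.8 and 9.76 with upf1, against 3.07 (lowest), 4.19 (median) and 4.89 (highest) in the 7 libraries with both genes. Its libraries without XRN1 reached above those without UPF1, with swr1 xrn1 just under htz1 upf1. REC114 differed by log2 0.73 ± 0.17 (adjusted p = 0.00629) as deposited and by 0.11 after scaling (adjusted p = 0.566). MSH5 differed by log2 0.77 ± 0.22 (adjusted p = 0.015) as deposited and by 0.16 after scaling (adjusted p = 0.59), and its call was also lost without htz1 xrn1, swr1 xrn1, htz1 upf1 or swr1 upf1 (adjusted p up to 0.0661).

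Lower without XRN1 were SPS4, MER1 and SMA2, again under either scaling. Without the libraries rich in ribosomal DNA, an alternative chosen after seeing the data, limma no longer called SPS4 (adjusted p = 0.0631) or MER1 (adjusted p = 0.0763). SPS4 averaged 13.2 ± 0.985 RPKM without XRN1 and 25.6 ± 5.19 RPKM without UPF1 (log2 difference -0.88 ± 0.17, -1.40 relative to the median gene, adjusted p = 0.00222). MER1 (YNL210W, chrXIV:250931-251743, plus strand), the splicing factor, stood at 11.2 RPKM in htz1 xrn1, 19.7 in swr1 xrn1 and 21.5 and 19.3 in xrn1, then 21.8 with htz1 upf1, 32.0 with swr1 upf1 and 27.0 and 47.0 with upf1, against 3.79 (lowest), 6.16 (median) and 9.77 (highest) in the 7 libraries with both genes. The htz1 xrn1 library was its lowest and upf1 2 its highest of the 8. MER1 averaged 17.9 ± 4.60 RPKM without XRN1 and 31.9 ± 10.9 RPKM without UPF1 (log2 difference -0.78 ± 0.18, -1.30 relative to the median gene, adjusted p = 0.00627). SMA2, whose values follow, averaged 7.37 ± 4.37 RPKM without XRN1 and 14.2 ± 7.14 RPKM without UPF1 (log2 difference -0.90 ± 0.16, -1.41 relative to the median gene, adjusted p = 0.0015). The other 3 genes called lower were MSH4 (log2 difference -0.62 ± 0.22), SPO11, the break-making enzyme (-0.71 ± 0.27), and CRR1, a spore wall protein (-0.48 ± 0.16).

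**Figure D4:**
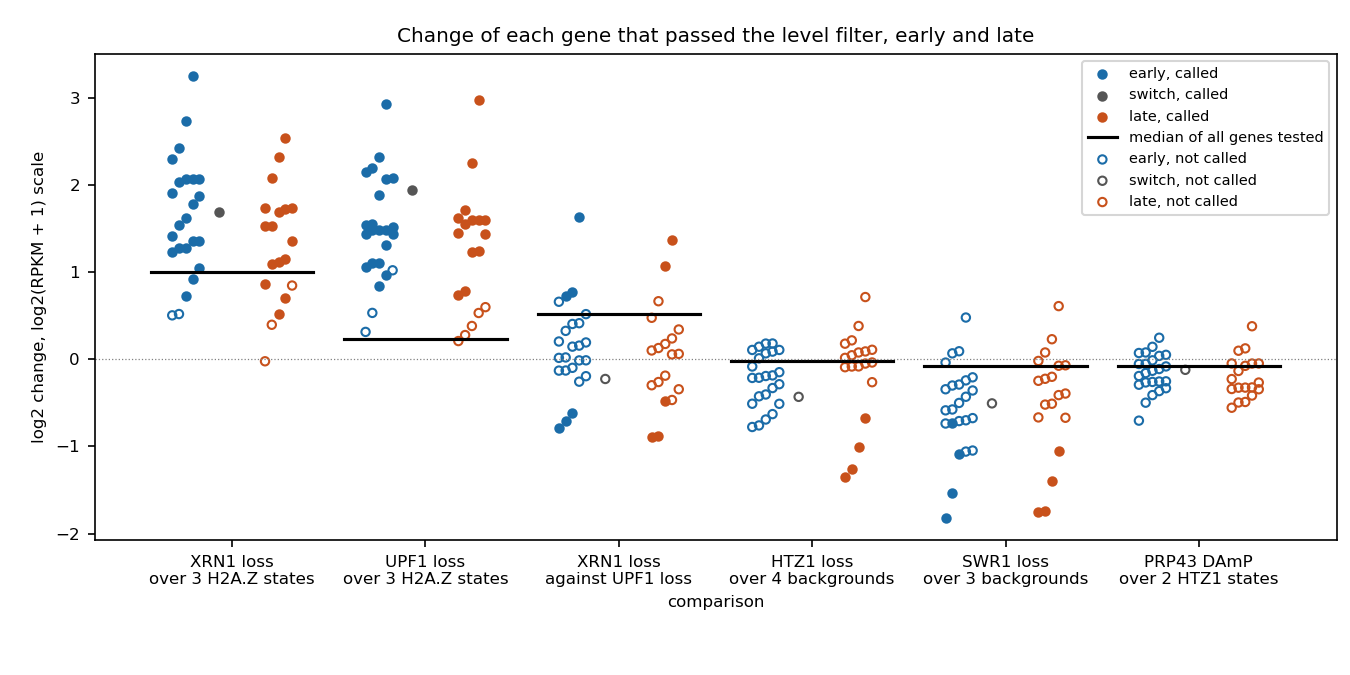
Log2 change on the log2(RPKM + 1) scale (y axis) of the 44 tested genes in 6 comparisons, as 1 point per gene: early blue, switch grey, late orange, filled where called, with the median of all genes as a black line. Most points lie above 0 without XRN1 and without UPF1, while the called points lie below 0 for the loss of HTZ1 (4 genes) and of SWR1 (8 genes).

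The loss of HTZ1 was averaged over 4 backgrounds (5 libraries without HTZ1 against 7 with it: wild type, xrn1, upf1 and prp43 DAmP). Of the 44 genes, 4 fell (1.48% of all genes fell), none rose (0.446% of all genes rose) and 40 did not pass, and the median log2 change was -0.09 for these genes and -0.02 for all genes. The 4 that fell were all late: SPO1, SMA2 and SSP1 of meiosis II and membrane formation and SPS2 of the spore wall. Among 24 early genes none was called and the median was -0.20, while the median of the 19 late genes was nearer to no change, at -0.04. After scaling 7 fell (3.34% of all genes fell), with SPO13, MER1 and NDT80 added, and SSP2, needed for spore wall formation, rose (2.16% of all genes rose). As deposited, 1 call was left without htz1 upf1 and 2 without any 1 of htz1 xrn1, xrn1 1, xrn1 2, upf1 1, upf1 2, prp43 DAmP htz1, prp43 DAmP, htz1 2 or wild type 1. Without the libraries rich in ribosomal DNA, an alternative chosen after seeing the data, 1 gene was called. The 4 calls as deposited were made among genes with a mean of 1 to 10 RPKM (4 of 27), and none among the 17 genes with a mean of 10 RPKM or more, to which MER1 and NDT80 belong. How many of all genes were called in each range of levels was not counted. SSP1 averaged under 1 RPKM without HTZ1 and met the filter through libraries where it is high, so its test is a description, and 3 calls were of other genes.

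The loss of SWR1 was averaged over 3 backgrounds (3 libraries without SWR1 against 6 with it: wild type, xrn1 and upf1), and these 6 also served in the comparison for HTZ1. Of the 44 genes, 8 fell (3.53% of all genes fell), none rose (0.477% of all genes rose) and 36 did not pass, with a median log2 change of -0.47 for these genes and -0.08 for all genes. The 8 were REC8, SPO13, HOP1 and MEI4 of the early genes (4 of 24, median -0.54) and SPO1, SMA2, SSP1 and SPS2 of the late genes (4 of 19, median -0.39). The 4 early ones have the core of URS1 before the start codon, as do 15 of all 26 early genes, of which MEI5 and SAE3 were not tested. SMA2, SSP1 and SPS2 have that of the MSE, while SPO1 has neither in this window. The core of the MSE stands before 13 of all 22 late genes, of which SPO19 and SPS22 were not tested. Most tested genes with either core were thus not called, and a link between the cores and the loss of SWR1 was not tested. All 8 have a mean of 1 to 10 RPKM (8 of 27), and none of the 17 more abundant genes was called as deposited. For this comparison too, the share of all genes called in each range of levels was not counted. After scaling 9 fell (3.28% of all genes fell), with NDT80, one of the 17, added, and none rose (0.724% of all genes rose). REC8, SSP1 and SPS2 averaged under 1 RPKM without SWR1 and met the filter through libraries where they are high, so their tests are a description, and 5 calls were of other genes. Left without swr1 xrn1 or swr1 upf1, the comparison called 2 genes, and without xrn1 1, xrn1 2, upf1 1 or swr1 it called 5. Whether the loss of SWR1 and the loss of HTZ1 differ for early genes was not tested.

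Markers of mating type and ribosomal DNA moved with the loss of SWR1. All 4 MATalpha markers were higher in the libraries without SWR1, with summed levels of 3364 to 3760 RPKM, against 15.8 to 99.8 RPKM in the xrn1 and upf1 libraries and wild type 3, and wild type 1 stood at 3498 RPKM. All 7 MATa markers were lower, with sums of 8.66 to 42.8 RPKM against 1055 to 1905 RPKM, and wild type 1 at 18.3 RPKM, with MFA2 at 0 in swr1 upf1 and AGA2 at 0 in swr1. Ribosomal DNA sequence took 12.1 to 16.9% of the RPKM without SWR1 and 0.026 to 2.50% with it. In the xrn1 and upf1 backgrounds mating type and the loss of SWR1 cannot be told apart. Of the 7 libraries with both XRN1 and UPF1, only swr1 and wild type 1 had the MATalpha markers. The ratio of swr1 to wild type 1 was 0.142 for REC8, 0.124 for SPO13, 0.390 for HOP1 and 0.213 for MEI4. It was 0.280 for SPO1, 0.247 for SMA2 and 0.146 for SPS2, while SSP1 had 0 reads in swr1. Each ratio comes from a single library without a replicate check. Both libraries also entered the test that called these genes, so the ratios are no separate support. Tested genes that were not called ran from 0.178 (HOP2) to 1.73 (SSP2).

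REC8 (YPR007C, chrXVI:569336-571378, minus strand), the meiotic cohesin subunit, was among the 8 genes called lower without SWR1. REC8 stood at 5.44 RPKM in htz1 xrn1 and 0.517 in swr1 xrn1, against 5.95 and 6.47 in xrn1. With UPF1 deleted it stood at 0.581 RPKM in htz1 upf1 and 0.0684 in swr1 upf1, against 5.44 and 6.50 in upf1. It stood at 0.700 and 0.107 RPKM in htz1 and 0.125 in swr1, against 0.882 and 0.376 in the wild type, and at 0.0471 RPKM in prp43 DAmP htz1, against 0.802 in prp43 DAmP. The value of htz1 xrn1 was thus at the level of xrn1, while swr1 xrn1, swr1 upf1 and htz1 upf1 lay with the 7 libraries that have both XRN1 and UPF1. The level in swr1 upf1 rests on 1 read, against 260 and 192 reads in upf1. REC8 averaged 0.237 ± 0.244 RPKM without SWR1 (SD, n = 3) and 4.27 ± 2.85 RPKM with it (n = 6), a log2 change of -1.82 ± 0.38 (adjusted p = 0.0302), and the call was lost when any library but swr1 or wild type 3 was left out (adjusted p up to 0.211). Without HTZ1 the log2 change of REC8 was -0.76 ± 0.31 (adjusted p = 0.225).

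SPO13 (YHR014W, chrVIII:132047-132922, plus strand), which keeps sister centromeres together in meiosis I, stood at 3.43 RPKM in htz1 xrn1 and 1.36 in swr1 xrn1, against 7.75 and 6.42 in xrn1. Among libraries without UPF1 it had 3.86 RPKM in htz1 upf1 and 2.07 in swr1 upf1, against 9.75 and 7.66 in upf1. It stood at 0.991 and 0.684 RPKM in htz1 and 0.341 in swr1, against 2.74 and 1.47 in the wild type, and at 0.632 RPKM in prp43 DAmP htz1, against 1.27 in prp43 DAmP. In each background the libraries without HTZ1 or SWR1 lay below those with both. SPO13 averaged 1.26 ± 0.870 RPKM without SWR1 and 5.96 ± 3.20 RPKM with it (log2 -1.53 ± 0.23, adjusted p = 0.00973), a call lost without swr1 xrn1 or swr1 upf1 (adjusted p up to 0.0846). Without HTZ1 it did not pass (log2 -0.78 ± 0.18, adjusted p = 0.0589), though it did after scaling (adjusted p = 0.0254).

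HOP1 (YIL072W, chrIX:226602-228419, plus strand), an axis protein that works with Red1, stood at 10.4 RPKM in htz1 xrn1 and 7.17 in swr1 xrn1, against 13.7 and 11.4 in xrn1. In the upf1 background it stood at 10.1 RPKM in htz1 upf1 and 6.30 in swr1 upf1, against 11.0 and 10.3 in upf1. It stood at 4.495 and 1.86 RPKM in htz1 and 1.503 in swr1, against 3.85 and 2.83 in the wild type, and at 2.09 RPKM in prp43 DAmP htz1, against 3.595 in prp43 DAmP. The libraries without SWR1 were the lowest in all 3 backgrounds. HOP1 averaged 4.99 ± 3.05 RPKM without SWR1 and 8.85 ± 4.42 RPKM with it (log2 -0.73 ± 0.17, adjusted p = 0.047), and the call was kept when wild type 3 was left out and lost when any other library was (adjusted p up to 0.261). MEI4 (YER044C-A, chrV:238460-239774, minus strand), a partner of Rec114, stood at 14.3 RPKM in htz1 xrn1 and 4.06 in swr1 xrn1, against 11.8 and 11.1 in xrn1. Its upf1 background held 5.22 RPKM in htz1 upf1 and 4.04 in swr1 upf1, against 10.9 and 6.68 in upf1. It stood at 1.36 and 1.18 RPKM in htz1 and 0.682 in swr1, against 3.20 and 1.88 in the wild type, and at 0.934 RPKM in prp43 DAmP htz1, against 3.54 in prp43 DAmP. Here htz1 xrn1 was the highest library and swr1 xrn1 lay at about a level with swr1 upf1. MEI4 averaged 2.92 ± 1.94 RPKM without SWR1 and 7.59 ± 4.33 RPKM with it (log2 -1.09 ± 0.22, adjusted p = 0.027), a call kept without upf1 2, wild type 1 or wild type 3 and lost without any other library (adjusted p up to 0.211).

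SSP1 (YHR184W, chrVIII:472744-474459, plus strand), a coat protein at the leading edge of the prospore membrane, was low in each library. SSP1 stood at 0.643 RPKM in htz1 xrn1 and 0.224 in swr1 xrn1, against 3.63 and 3.88 in xrn1. With UPF1 deleted it stood at 0.303 RPKM in htz1 upf1 and 0.326 in swr1 upf1, against 3.06 and 2.98 in upf1. It stood at 0.685 and 0.111 RPKM in htz1 and 0 in swr1, against 2.76 and 1.86 in the wild type, and at 0.140 RPKM in prp43 DAmP htz1, against 1.21 in prp43 DAmP. In the xrn1 and upf1 backgrounds the levels without HTZ1 or SWR1 were below the wild type's, while the levels of the single xrn1 and upf1 mutants were above it. SSP1 had 0 reads in swr1, and a count of 0 allows up to 3 reads, or 0.0747 RPKM, as counting error alone. It averaged 0.376 ± 0.273 RPKM without HTZ1 (SD, n = 5) and 2.77 ± 0.945 RPKM with it (n = 7), with no overlap (log2 -1.36 ± 0.21, adjusted p = 0.0131), and the call was lost without htz1 upf1 (adjusted p = 0.0636). Without SWR1 it averaged 0.183 ± 0.167 RPKM (n = 3) and with it 3.03 ± 0.710 RPKM (n = 6; log2 -1.76 ± 0.23, adjusted p = 0.00482), a call kept when any of the 9 libraries was left out.

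SMA2 (YML066C, chrXIII:140424-141533, minus strand), needed for prospore membrane assembly, stood at 4.23 RPKM in htz1 xrn1 and 3.04 in swr1 xrn1, against 10.5 and 11.7 in xrn1. Its upf1 background held 9.03 RPKM in htz1 upf1 and 7.30 in swr1 upf1, against 18.6 and 21.9 in upf1. It stood at 2.44 and 1.72 RPKM in htz1 and 1.96 in swr1, against 7.94 and 4.62 in the wild type, and at 1.54 RPKM in prp43 DAmP htz1, against 6.97 in prp43 DAmP. Every library without HTZ1 or SWR1 lay below its own background, in all 4 backgrounds. SMA2 averaged 3.79 ± 3.12 RPKM without HTZ1 and 11.8 ± 6.32 RPKM with it (log2 -1.26 ± 0.17, adjusted p = 0.00815), which held when any of the 12 libraries was left out (log2 -1.35 to -1.17). It averaged 4.10 ± 2.82 RPKM without SWR1 and 12.5 ± 6.52 RPKM with it (log2 -1.40 ± 0.19, adjusted p = 0.00681), lost without swr1 xrn1 (adjusted p = 0.0615).

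SPO1 stood at 2.97 and 2.01 RPKM in htz1 and 1.45 in swr1, against 5.16 and 3.19 in the wild type, and at 2.08 RPKM in prp43 DAmP htz1, against 4.32 in prp43 DAmP, beside the levels given above. Its libraries without HTZ1 or SWR1 lay below their own background in each background. SPO1 averaged 5.83 ± 5.99 RPKM without HTZ1 and 12.2 ± 9.24 RPKM with it (log2 -0.68 ± 0.15, adjusted p = 0.0466), a call kept when htz1 1 or wild type 3 was left out and lost without any of the other 10 libraries (adjusted p up to 0.158). It averaged 5.87 ± 4.70 RPKM without SWR1 and 13.5 ± 9.37 RPKM with it (log2 -1.06 ± 0.17, adjusted p = 0.0133), lost without swr1 xrn1, swr1 upf1 or swr1 (adjusted p up to 0.105).

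SPS2 (YDR522C, chrIV:1483795-1485303, minus strand), a cell surface protein needed for the spore wall, stood at 3.09 RPKM in htz1 xrn1 and 0.725 in swr1 xrn1, against 7.63 and 5.95 in xrn1. Among libraries without UPF1 it had 0.959 RPKM in htz1 upf1 and 0.555 in swr1 upf1, against 5.95 and 4.35 in upf1. It stood at 1.05 and 0.415 RPKM in htz1 and 0.368 in swr1, against 2.52 and 1.41 in the wild type, and at 0.367 RPKM in prp43 DAmP htz1, against 1.26 in prp43 DAmP. The libraries without HTZ1 or SWR1 again lay below their own background each time, and swr1 upf1 rests on 6 reads. SPS2 averaged 1.18 ± 1.11 RPKM without HTZ1 and 4.15 ± 2.49 RPKM with it (log2 -1.003 ± 0.22, adjusted p = 0.0462), a call kept when htz1 1 was left out and lost without any of the other 11 libraries (adjusted p up to 0.16). It averaged 0.549 ± 0.179 RPKM without SWR1 and 4.63 ± 2.34 RPKM with it (log2 -1.74 ± 0.27, adjusted p = 0.0113), lost without swr1 xrn1 or swr1 upf1 (adjusted p up to 0.0937).

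**Figure D5:**
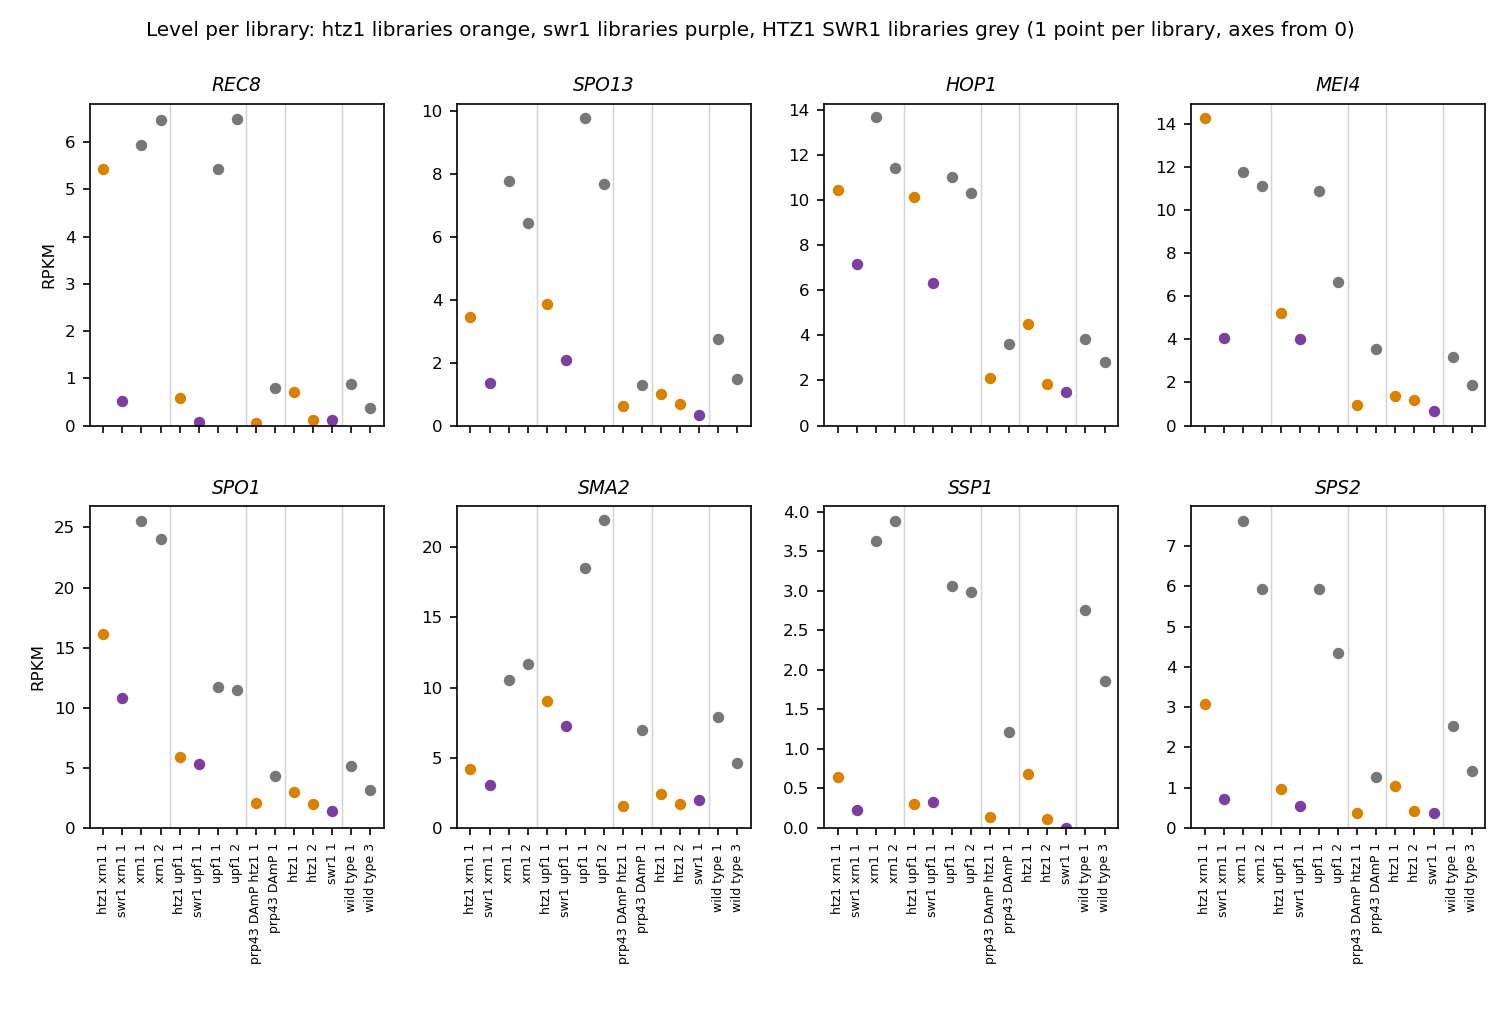
Level (RPKM, linear y axis from 0) of REC8, SPO13, HOP1, MEI4, SPO1, SMA2, SSP1 and SPS2 in every library, as 1 point each, grouped by background: orange without HTZ1, purple without SWR1, grey for the others. In the xrn1 and upf1 backgrounds the purple points lie below the grey ones for each gene, and for REC8 and MEI4 the htz1 xrn1 point lies with or above the xrn1 points.

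Direction can also be counted without a test. Without HTZ1, 8 of the 44 genes (18.2%) lay below their own background with no overlap in each of the 4 backgrounds, against 5.85% of all genes. They were SPO13, ZIP1, MER1, NDT80, SPO1, SMA2, SSP1 and SPS2, and 1 gene lay above (2.27%, against 3.46% of all genes). Without SWR1, 24 of the 44 genes (54.5%) lay below in each of the 3 backgrounds, against 18.3% of all genes. Above lay 1 gene (2.27%, against 4.46% of all genes). The genes counted as below include SSP1 without HTZ1, and REC8, HOP2, SSP1 and SPS2 without SWR1, which averaged under 1 RPKM in those mutants. They met the filter through libraries where they are high, so both counts are a description. Mating type and the loss of SWR1 cannot be told apart here either in the xrn1 and upf1 backgrounds.

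The differences between backgrounds did not pass the tests made of them. The effect of HTZ1 in the decay mutants minus that in the wild type called 0.0% of all genes, as did the same contrast for SWR1 (0.0%), the effect of HTZ1 in xrn1 minus that in upf1 (0.0%) and of SWR1 in xrn1 minus that in upf1 (0.0%). At an unadjusted p under 0.05, limma found 0, 1, 3 and 1 of the 44 genes in these 4 contrasts, and 100, 83, 140 and 95 of all genes. In the 2 contrasts against the wild type, limma voom on recovered reads called none of the 44 genes either, with 0 and 1 of them under 0.05 unadjusted. Among the 44 genes RIM4 had the smallest p, in the contrast of HTZ1 between xrn1 and upf1. RIM4 stood at 1.78 times the xrn1 mean in htz1 xrn1 and 0.621 times the upf1 mean in htz1 upf1 (log2 difference 1.48 ± 0.40, unadjusted p = 0.00475, adjusted p = 0.995). REC8 had a log2 difference of 1.97 ± 0.69, with ratios of 0.877 and 0.0974 in the same 2 backgrounds (adjusted p = 0.995).

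For prp43 DAmP (1 prp43 DAmP htz1 and 1 prp43 DAmP library, against 2 htz1 and 2 wild type), 0.0% of all genes and none of the 44 genes were called. limma found 0 of the 44 and 156 of all genes at an unadjusted p under 0.05, and limma voom 0 and 149. The median log2 change was -0.18 for these genes and -0.07 for all genes. Among the 44 genes the smallest p was that of REC104, a break gene, with a log2 change of -0.71 ± 0.32 (adjusted p = 0.999).

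A list of 44 other meiosis genes (repressors and signalling, meiotic chromosomes, spore formation), of which 37 were tested, gives the wider pathway. Without XRN1, 34 of the 37 rose (74.1% of all genes did), none fell and the median was 1.22, against 0.99 for all genes. After scaling 15 were higher and 2 lower (31.1 and 29.0% of all genes). Without UPF1, 17 rose (28.8% of all genes did), none fell and the median was 0.51, against 0.23 for all genes. After scaling 13 were higher and 7 lower (20.9 and 19.1% of all genes). HOS2, a histone deacetylase of the Set3 complex that restrains meiotic genes, averaged 188 ± 28.7 RPKM without XRN1, 23.2 ± 3.03 RPKM without UPF1 and 21.2 ± 6.52 RPKM in the 5 control libraries. Its log2 change was 3.07 ± 0.17 without XRN1 (adjusted p = 2.89e-06) and 0.12 ± 0.17 without UPF1 (adjusted p = 0.656). ISC10, a sporulation-specific inhibitor of the Smk1 kinase, averaged 77.4 ± 15.1 RPKM without XRN1, 147 ± 7.95 RPKM without UPF1 and 17.0 ± 5.54 RPKM in the controls (log2 3.07 ± 0.22 without UPF1, adjusted p = 2.06e-05). NDJ1, a telomere protein of meiotic prophase, rose by log2 2.87 ± 0.33 without XRN1 (adjusted p = 3.6e-05) and 2.24 ± 0.20 without UPF1 (adjusted p = 5.94e-05).

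Without HTZ1, limma called 0 of the 37 (1.48% of all genes fell), and limma voom called 1. At an unadjusted p under 0.05, limma found 8 of the 37, and 1153 of all 6495 genes. After scaling 1 was higher and 2 were lower (2.16 and 3.34% of all genes). Without SWR1, 2 of the 37 fell, where 3.53% of all genes fell. They were MPC54, a spindle pole protein that starts the prospore membrane (log2 -1.31 ± 0.22, adjusted p = 0.0142), and LDS2, a lipid droplet protein of the spore wall (log2 -0.98 ± 0.22, adjusted p = 0.0395).

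Some values hold RNA of more than the named gene. The strand setting is not given in the sources used here, and reads of a gene and of an antisense partner cannot be told apart. SPS100 overlaps SUT169 on the opposite strand, so its values and their rise may include that transcript. ZIP2, a member of the synapsis class, overlaps the noncoding RNA RME3 (chrVII:33109-35013), and its level followed that of RME3 (15.7 and 16.1 RPKM in htz1 xrn1, 4.51 and 4.55 RPKM in wild type 1). IME4, an RNA methyltransferase of meiotic entry in the wider list, overlaps RME2 (chrVII:141898-144120), whose 8 values without XRN1 or UPF1 lay between 115 and 154 RPKM and whose other 7 lay between 19.6 and 26.6 RPKM. RME2 and RME3 were named after their values were seen.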

How the data were processed

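RNA levels were taken from the table that the authors deposited as RPKM (reads divided by gene length and by the library total) for 15 libraries. The submitters' processing notes name STAR 2.4.0, CASAVA and sacCer3. Which program counted reads, with which annotation and strand setting, is not given in the sources used here. Left out were 1 column that matched no sample and 3 entries without a distinct name (0.0203 to 0.129% of a library's summed RPKM). RPKM times gene length gave whole reads, within 0.1 read, for 99.8 to 100.0% of low values in a library, which gave read totals and limma voom as an alternative.

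Changes were fitted with limma 3.58.1 (R 4.3.3; moderated with a mean-variance trend) on log2(RPKM + 1), a scale that shrinks changes of low genes, for the 6495 genes that averaged at least 1 RPKM. Background was a term in each averaged comparison. Interactions came from a model with a mean per genotype, where genotypes with 1 library are assumed to vary like the rest. Genes were called at a Benjamini-Hochberg adjusted p under 0.05 over all genes tested. Values after ± are SDs for levels and standard errors for log2 changes. Intervals from reads cover counting error only. Promoters and splice sites were read from the R64 genome, which is the build of sacCer3, with Python 3.11.15, and plots were drawn with matplotlib 3.10.9. The procedure was tested on simulated data. Library numbers come from the sample titles. Numbers shared between genotypes did not pair the libraries: deviations correlated at 0.19 (xrn1 with upf1), -0.27 (xrn1 with htz1) and 0.13 (upf1 with htz1).

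The 50 genes, the wider list and the tests were chosen with earlier results of these data known. Named with a test were up to 8 called genes per comparison by size of change, at least 1 per role where one was called. Levels are given for these, for the gene of each role with the highest mean and for IME1, IME2, NDT80 and RIM4, for the 7 libraries with XRN1 and UPF1 often as the lowest, median and highest. From the wider list up to 4 called genes per comparison could be named. As alternatives, pseudocounts of 0.1 and 5 were tried, as were no filter, a filter at a mean of 10 RPKM, scaling to the same median log ratio, limma voom, an additive model of all libraries, a replicate block, and leaving out each library. Leaving out libraries rich in ribosomal DNA or the prp43 DAmP libraries, and comparing xrn1 with upf1 backgrounds, were chosen after seeing the data.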

Additional observations from a re-analysis of the deposited data

How the results depend on the processing

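Of the 658 alternative values of the genes that the rule named with a test, none changed direction, 582 kept their side of the threshold and 76 lost the call. SPS19, which is not among them, was called higher without XRN1 as deposited (log2 0.51) and lower after scaling (-0.44). The number of the 50 genes called moved by over 1.5 times as follows. With only genes at a mean of at least 10 RPKM it was 17 without XRN1 and 15 without UPF1 (both of 17 tested), 5 between them, 0 without HTZ1 and 0 without SWR1. Scaling gave 24 without XRN1 (22 higher), 28 between XRN1 and UPF1 loss (25 lower) and 8 without HTZ1 (7 lower). A pseudocount of 5 gave 2 without HTZ1 and 5 without SWR1. Leaving out libraries rich in ribosomal DNA gave 7 between XRN1 and UPF1 loss and 1 without HTZ1, where leaving out the prp43 DAmP libraries gave 2. Fewer genes or libraries entered some of these fits, and otherwise the cause was not tested. Leaving out each library in turn gave 37 to 40 calls without XRN1, 33 to 36 without UPF1, 7 to 11 between them, 1 to 4 without HTZ1 and 2 to 9 without SWR1. With the replicate number as a block, 0 genes were called without HTZ1, and MSH4 lost its call without UPF1 (adjusted p = 0.0639). The block could be fitted for 5 of the comparisons, and library numbers did not pair the samples. limma voom on recovered reads called 42, 39, 12, 5 and 10 genes in the same 5 comparisons. Depth limits the genes of 1 to 10 RPKM, which hold all calls without HTZ1 or SWR1 made as deposited.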
